A study of Ovis aries with 6 samples.

Results

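CA1 and HBB are 2 genes whose proteins are known from red blood cells, and they are described here across wool-bearing and woolless sheep skin. CA1 is a cytosolic carbonic anhydrase and HBB is the beta chain of adult haemoglobin. They are 2 of 476 genes that could be named on the array. Every non-control probe whose identifier is a sheep RefSeq mRNA of either gene was kept, which gave 3 of 15008 probes: A_70_P039261 and A_70_P039262 for CA1, and A_70_P051261 for HBB. The pair was chosen with its difference between the body sites already known, so that difference is given as a description without a test.

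Full-thickness skin came from 3 Aohan fine wool sheep aged 12 months, 1 ram and 2 ewes that had the same father. Each animal was sampled at the body side, where wool grows, and at the groin, where it does not. Body side skin gave 3 arrays (replicate 1 the ram, replicates 2 and 3 ewes) and groin skin gave 3 arrays numbered the same way, all single-colour Agilent sheep arrays with Cy3-labelled RNA. No animal was treated, and there were no animals of another breed or age; with so few related animals, any p-value measures only the spread among them.

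Carbonic anhydrases turn carbon dioxide and water into bicarbonate and a proton and back, and so move acid, base and carbon dioxide across cells. CA1 is plentiful in the red cells of many mammals and is also made by some epithelia, the lining of the colon among them, whereas the red cells of ruminants are reported to hold mainly CA2. HBB pairs with alpha globin to carry oxygen. Red cells lose their nucleus, so globin mRNA in blood sits in young red cells, and HBB mRNA in a skin sample is commonly read as a sign of the blood within it. In the RefSeq genes of sheep (assembly ARS-UI_Ramb_v3.0), CA1 lies among its relatives CA2, CA3 and CA13, and HBB lies on the chromosome that also carries LOC100134870, the juvenile beta globin HBBC. No probe was named for CA2, CA3, CA13 or HBBC. The files give no probe sequences, so whether these probes also bind RNA of close relatives was not tested.

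All groin arrays share 1 scan and all body side arrays another, and what comes from the scan and what from the skin cannot be told apart in these differences. Overall brightness differed with the site: the signal's 75th percentile was 3677 to 4401 on groin arrays and 1103 to 2048 on body side arrays. Between 10730 and 14053 probes per array were well above background. For this reason a level here is the log2 signal from which that array's 75th percentile was subtracted, so that a probe at the percentile has a level of 0. Of 13278 probes tested between the sites, 69.9% were called different (limma, adjusted p under 0.05), 37% as higher and 32.8% as lower on the body side. The median difference of all tested probes was 0.10. Among 11 tested genes of hair follicle and skin, 10 were higher on the body side and 1 was lower, with a median log2 difference of 2.94.

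CA1 was bright in the groin and close to background on the body side. The brighter CA1 probe, A_70_P039261, had processed signals of 5520, 9281 and 6430 on groin arrays 1, 2 and 3. On body side arrays 1, 2 and 3 the same probe read 11.8, 30.7 and 14.6. All groin values lay far above all body side values, with no overlap, and the scanner software rated the probe well above background on all 3 groin arrays but only on body side array 2. Negative control spots, which match no sheep RNA, give the floor of each array. Their 95th percentile was 14.8, 4.95 and 7.34 on body side arrays 1, 2 and 3. CA1 thus lay under that mark on body side array 1 and above it on the other two. In the groin, CA1 was at least 1025 times the median negative control, and on the body side it was 1.57, 8.81 and 2.88 times that median.

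The dimmer CA1 probe, A_70_P039262, showed the same pattern at lower signals. It read 652, 1130 and 845 on groin arrays 1, 2 and 3 and 11.1, 26.6 and 7.25 on body side arrays 1, 2 and 3. Again only body side array 2 was well above background. On body side arrays 1 and 3 the software's own error was 98.2% and 98.5% of the signal, while for the brighter probe it was 61.8% and 36.0% there. In the groin each error was close to 10% of the signal for both probes.

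**Figure D1:**
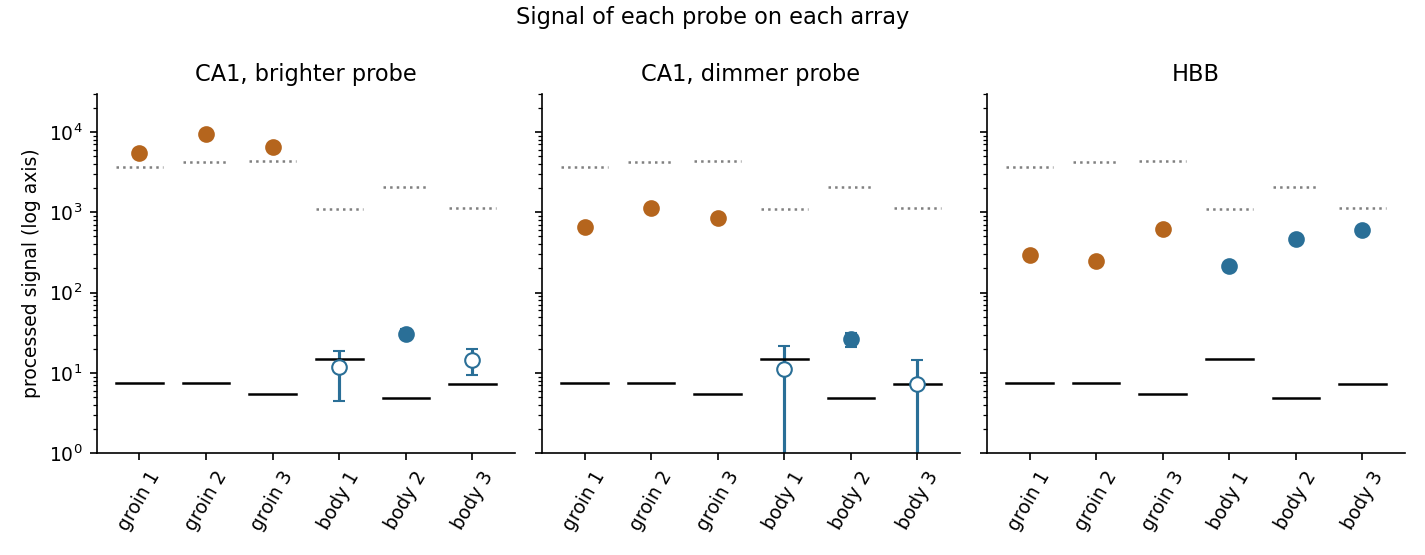
Processed signal (log axis) of the 3 probes on each of the 6 arrays; bars are the scanner software's error, open points are not well above background, black lines mark the 95th percentile of negative control spots and dotted lines the 75th percentile of all probes. On body side arrays 1 and 3 neither CA1 probe is well above background, with signals of 7.25 to 14.6, whereas HBB stays between 212 and 618 on all arrays.

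After scaling, the brighter CA1 probe was at 0.76 ± 0.34 in the groin and -6.30 ± 0.25 on the body side (log2 level, SD, n = 3 each). The log2 difference, body side minus groin, was -7.06 ± 0.22 (SE of the limma fit), a measured 133-fold, in which 2 of the 3 body side values were not well above background, so the size is uncertain. As measured, this was the lowest difference of all 13278 tested probes. Among the 442 named genes the next one was SCD, the stearoyl-CoA desaturase of fat synthesis, at a measured -6.08. The dimmer CA1 probe was at -2.25 ± 0.33 in the groin and -6.73 ± 0.52 on the body side, a difference of -4.48 ± 0.29, and held rank 54 from the bottom. In bulk skin, fewer CA1-bearing cells and less CA1 RNA per cell cannot be told apart.

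The 2 CA1 probes differed from each other more in the groin than on the body side. In the groin the brighter probe exceeded the dimmer by 3.02 ± 0.08 on the log2 scale (SD, n = 3), that is 8.47, 8.21 and 7.61 times on arrays 1, 2 and 3. On the body side the gap was 0.43 ± 0.50, with ratios of 1.06, 1.16 and 2.01. The groin gap was nearly the same in every animal, and the body side gap spread widely. Neither probe was well above background on body side arrays 1 and 3, and both were on array 2, where the ratio was 1.16. The size of the CA1 difference therefore depended on the probe and on how dim values were handled. With each value that was not well above background raised to the lowest such signal on its array, the differences were -6.47 and -3.53. With normexp background correction, which adds an offset and lifts dim values, they were -4.75 and -1.69. Both probes kept a lower level on the body side in each case.

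HBB went the other way after scaling, and by far less. Its signals were 297, 245 and 618 on groin arrays 1, 2 and 3 and 212, 465 and 597 on body side arrays 1, 2 and 3. These unscaled signals overlapped between the sites, and all 6 were well above background. Since the body side arrays were dimmer as a whole, the scaled levels did not overlap: they were -3.63, -4.09 and -2.83 in the groin and -2.38, -2.14 and -0.92 on the body side. The site means were -3.52 ± 0.64 and -1.81 ± 0.78 (SD, n = 3 each), a difference of 1.70 ± 0.43 (SE) or 3.26-fold higher on the body side. The gap between the closest arrays of the sites was 0.45, smaller than the SD within either site. Without scaling between arrays the difference was 0.13, in a setting where the median of all tested probes was -1.47. Relative to that median, HBB was also the higher one on the body side.

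The brightness rank of a probe within its own array needs no scaling between arrays. The brighter CA1 probe stood at percentiles 80.4, 85.6 and 80.8 on groin arrays 1, 2 and 3 and at 13.4, 15.8 and 14.2 on body side arrays 1, 2 and 3. It was thus among the brighter probes in the groin and among the dimmest on the body side. The dimmer probe stood between 48.3 and 54.4 in the groin and between 9.06 and 14.3 on the body side. HBB stood at 36.8, 31.6 and 43.3 in the groin and at 54.0, 56.4 and 67.8 on the body side. By rank, too, the sites did not overlap for any of the 3 probes. For scaled levels this held for 75.2% of all tested probes, and nothing is read from it for a pair chosen on this contrast.

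**Figure D2:**
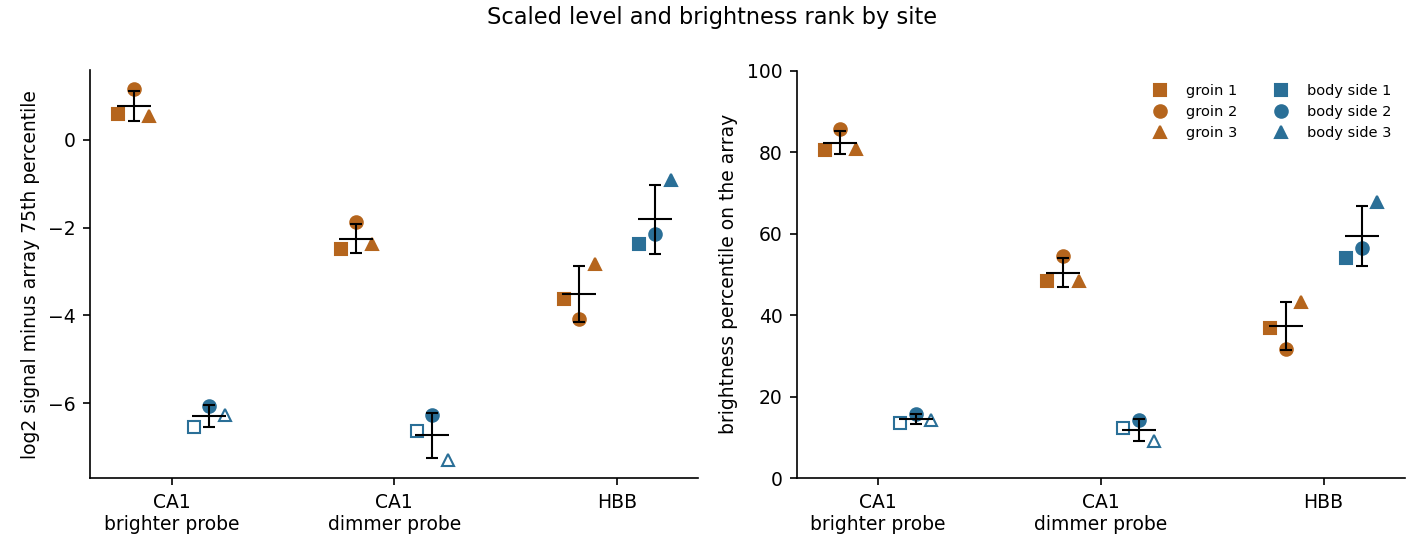
Scaled log2 level (left) and brightness percentile among all non-control probes of the array (right) of the 3 probes, with groin in brown and body side in blue; symbols mark the replicate, open symbols are not well above background, and black bars are mean ± SD of 3 arrays. CA1 drops from percentiles of 80.4 to 85.6 to between 13.4 and 15.8 by its brighter probe, while HBB moves up from between 31.6 and 43.3 to between 54.0 and 67.8.

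How far the members stood from other probes of like brightness could also be described. When the tested probes were put in 10 equal groups by mean signal, the brighter CA1 probe and HBB fell in the same group, the fifth from the dimmest, whose median difference was -0.42. In that group 2.48% of the probes had a difference above that of HBB, and 99.9% had one above that of CA1. The dimmer CA1 probe was in the second group, whose median difference was 0.07.

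**Figure D3:**
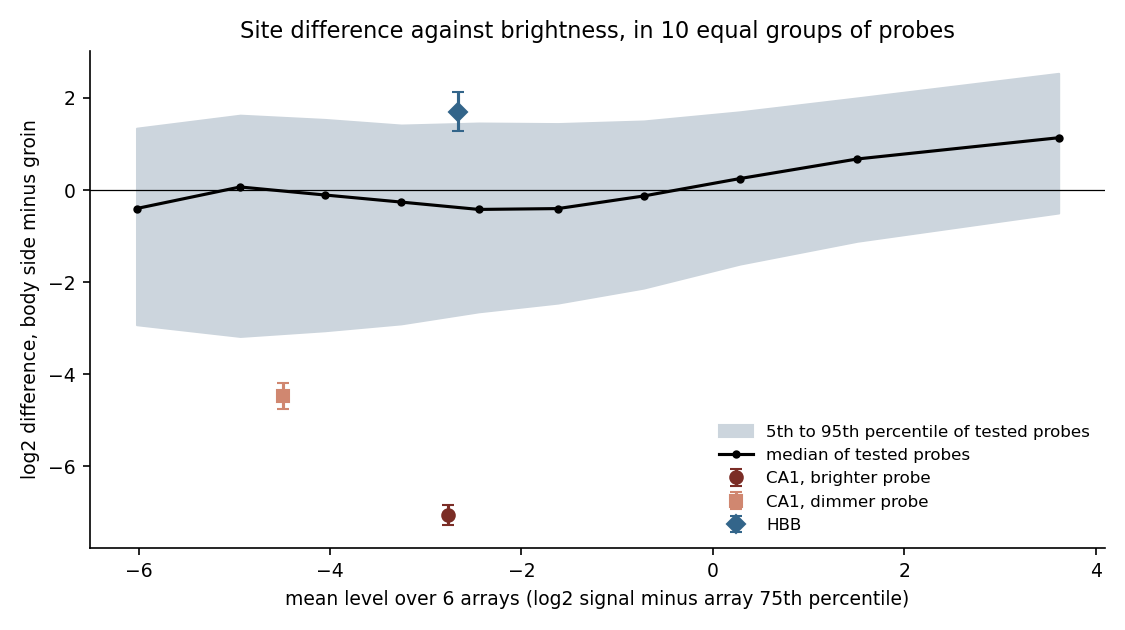
Log2 difference, body side minus groin, against mean scaled level over 6 arrays; the line joins the medians of 10 equal groups of tested probes, the band spans their 5th to 95th percentile, and points are the 3 probes with the SE of the fit. HBB at 1.70 lies just above the band and both CA1 probes, at -7.06 and -4.48, lie below it.

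The spread within a site played no part in choosing the pair. The pooled SD of HBB within the sites was 0.71, equal to or above that of 96.3% of the tested probes and of 99.0% of those in its brightness group. It was wide at both sites, with percentiles of 98.2 in the groin and 94.3 on the body side. The pooled SD of the brighter CA1 probe was 0.30, at percentile 62.7, and that of the dimmer was 0.43, at percentile 84.8. Within their own brightness groups they were at percentiles 70.3 and 67.1. In the groin, where all values were well above background, the SD of CA1 was at percentile 87.1 by the brighter probe and 85.5 by the dimmer. On the body side the brighter probe was at percentile 42.9, with 2 of 3 values not well above background. HBB thus varied more from array to array than most probes, and CA1 in the groin did so to a lesser degree.

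The order of the arrays within a site was not the same for HBB and CA1, though it was alike in part. Within the groin, replicate 2 had the highest CA1 level by both probes (1.15 and -1.88) and the lowest HBB level (-4.09). Groin replicate 3 had the highest HBB level (-2.83) and, by the brighter probe, the lowest CA1 level (0.55). Within the body side, replicate 3 was highest in HBB (-0.92) and replicate 2 highest in CA1 (-6.06 and -6.27), while replicate 1 was lowest in HBB (-2.38) and in the brighter CA1 probe (-6.55). The CA1 values of body side replicates 1 and 3 were not well above background. With 3 arrays a site these orders are descriptions.

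Between sexes the site difference could be compared because the ram and the ewes were each sampled at both sites. For the brighter CA1 probe it was -7.14 in the ram and -7.02 in the ewes, a gap of -0.12 ± 0.47 (SE; limma interaction term, adjusted p = 0.9999). For the dimmer probe the ram was at -4.14 and the ewes at -4.64, a gap of 0.50 ± 0.58 (limma adjusted p = 0.9999). HBB differed by 1.25 in the ram and 1.93 in the ewes, a gap of -0.68 ± 0.77 (limma adjusted p = 0.998). None of the 3 passed the threshold, as against 0.113% of all tested probes that did, and with 1 ram the intervals are wide. The ram's only body side CA1 value and that of ewe replicate 3 were not well above background by either probe. The CA1 gaps between the sexes thus rest on dim values. The sign of the small gap at the brighter CA1 probe turned with normexp (0.81) and quantile normalization (0.18).

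The numbers on the ewes' arrays are not stated to mark the same ewe at both sites, so both pairings were taken. CA1 by its brighter probe differed by -7.21 and -6.83 when ewes were matched by number and by -6.61 and -7.43 when crossed. HBB differed by 1.95 and 1.91 when matched by number and by 0.69 and 3.17 when crossed. Every pairing left CA1 lower and HBB higher on the body side, but for HBB the size within a ewe depended on the pairing.

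The direction of CA1 was the same in each way of processing that was run, and that of HBB in each that scaled the arrays, while the sizes differed. Without scaling, HBB was at 0.13 ± 0.46 (SE). Across normexp, quantile normalization, median centring, cyclic loess and the authors' deposited log2 values, HBB lay between 1.51 and 2.16. It lay between 1.26 (without body side replicate 3) and 2.05 (without groin replicate 3) when arrays or replicate numbers were left out. For CA1, leaving out arrays gave -7.18 to -6.86 by the brighter probe and -4.71 to -4.20 by the dimmer.

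**Figure D4:**
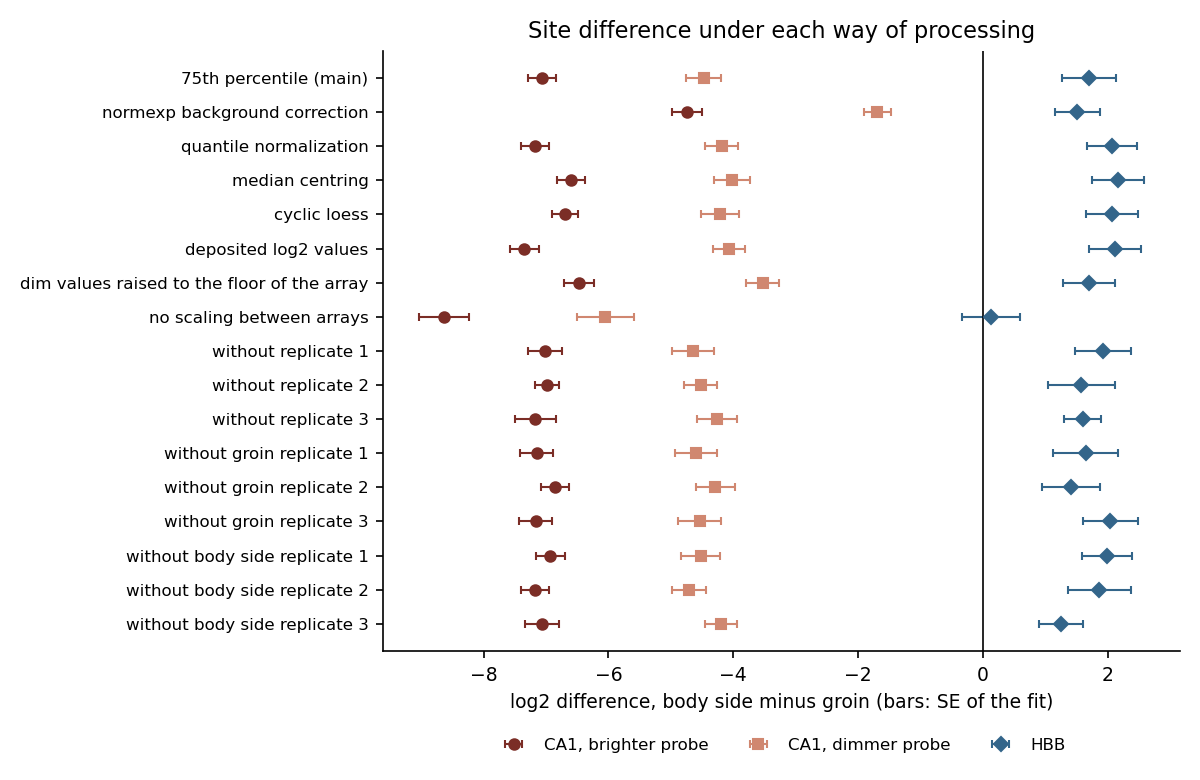
Log2 difference, body side minus groin, of the 3 probes under 8 ways of scaling or background handling and 9 ways of leaving out arrays; bars are the SE of each limma fit. CA1 lies below 0 in every row, from -8.63 to -1.69 over both probes. HBB lies at 0.13 without scaling, where its bar crosses 0, and between 1.26 and 2.16 in the other rows.

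Whether blood in the samples goes with CA1 could be set against few genes. Of 36 entries of a list of red cell genes, which included alpha globin, ALAS2 of haem synthesis, the band 3 anion exchanger SLC4A1, glycophorins and KLF1, only CA1 and HBB had a named probe. HBB was therefore the 1 defining red cell gene that could be read beside CA1. The site differences of HBB were 1.70 after scaling and 0.13 without it, beside -7.06 and -8.63 for the brighter CA1 probe, and the pair was chosen on these differences. The part of blood content in the CA1 values was not tested.

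Genes that red cells share with many other cells, listed together with the hormone EPO, were mostly higher on the body side. Of 7 tested, EPO among them, 5 rose, 1 fell and 1 did not pass (limma, adjusted p under 0.05). Their median was 1.1, against 0.39 for the 440 named genes other than the pair, of which 200 rose and 112 fell. UROD, an enzyme of haem synthesis, rose by 1.88 ± 0.26 (SE, adjusted p = 3.61e-04), from 1.70 ± 0.30 to 3.58 ± 0.43 (SD, n = 3 each). EPO, the hormone that drives red cell formation, rose by 1.40 ± 0.21, though its other probe did not pass (0.88). The prion protein gene PRNP rose by 0.99 ± 0.27 and FTH1, the heavy chain of the iron store ferritin, by 1.1 ± 0.26, but both turned below 0 with quantile normalization (-0.077 and -0.15) and cyclic loess (-0.072 and -0.61). Among their other probes, FTH1 at 0.23 and PRNP at -0.68 and -0.80 did not pass, while FTH1 at 1.07 and PRNP at 0.45 were called higher. UROD, PRNP and FTH1 all lay in the brightest group of probes, whose median difference was 1.14. BCL2L1, a survival factor, did not pass (-0.27 ± 0.19), while its other probe was called lower (-0.66).

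AQP1, the water channel of red cells, vessels and secretory cells, was the gene of that list that fell. Its brighter probe was well above background on all groin arrays and on no body side array, so its fold is a bound: the groin level was at least 4.38-fold higher (limma adjusted p = 2.13e-04). Measured means were -3.93 in the groin and -6.83 on the body side. Its other probe was at least 3.84-fold higher there. The call on the brighter probe ended with normexp (-0.54). AQP1 thus differed in the direction of CA1 and against that of HBB.

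AQP1 also stood in a list of vessel genes. Of 6 tested endothelial genes 5 were lower on the body side and AGTR1, the angiotensin receptor, did not pass, with a median of -1.1, where 32.8% of all tested probes were called lower. ICAM1, an adhesion molecule for white cells, fell by 1.90 ± 0.24 (SE, limma adjusted p = 2.66e-04), with 2 body side arrays well above background. SELE, the endothelial selectin, fell by 1.5 ± 0.18. SELP, the selectin of endothelium and platelets and the sole tested gene of a platelet list, fell by 0.69 ± 0.16, a call that ended with 3 other settings of background or scaling, normexp (-0.04), quantile (-0.30) and centring on the median (-0.24), with the deposited values (-0.31) and without replicate 3. The part of vessel content in the values of either gene was not tested.

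White cell genes were split. In a granulocyte list of 6 tested genes 2 rose and none fell by the brightest probe of each, whereas the other probes of ITGAM (-3.02, with no body side array well above background) and ITGB2 (-0.63) were called lower. The 2 were the cathelicidins BAC5 (1.14 ± 0.40 SE) and CATHL1B (1.24 ± 0.17), antimicrobial peptides of neutrophils, both dim and with 2 body side arrays well above background. Their groin means, -6.28 and -6.44, lay under -6.06, the mean level of the lowest well above background signals on body side arrays. Without scaling both differences were below 0 (-0.44 and -0.33), where the median of all tested probes was -1.47. The part of the floor in these rises was not tested. The BAC5 call ended in several leave-outs, at 0.65 without body side replicate 3, while its other probe was also called higher (1.17). Of 11 lymphocyte and monocyte genes 5 rose, 4 fell and 2 did not pass, with a median of -0.49. Beside both lists, 37% of all tested probes were called higher and 32.8% lower. CD3E and CD3D, chains of the T cell receptor complex, rose by 1.63 ± 0.17 and 1.36 ± 0.19. CD247, another chain of that complex, named after its values were seen, fell by 1.18 ± 0.22, and by 1.46 at its other probe. CR2, a complement receptor of B cells, fell by 1.68 ± 0.18. The groin level of the integrin ITGAL was at least 1.27-fold higher, as no body side array had it well above background. By its other probe it was at least 1.11-fold higher. ITGAL turned to 0.59 with normexp, and its call ended with dim values raised to the floor (-0.34). Over the 27 tested genes of these red cell, platelet, white cell and carbonic anhydrase lists, 14 rose, 6 fell and 7 did not pass, and the median was 0.60. Over the 440 named genes other than the pair, 200 rose and 112 fell, with a median of 0.39, so these lists lay near the background of named genes.

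**Figure D5:**
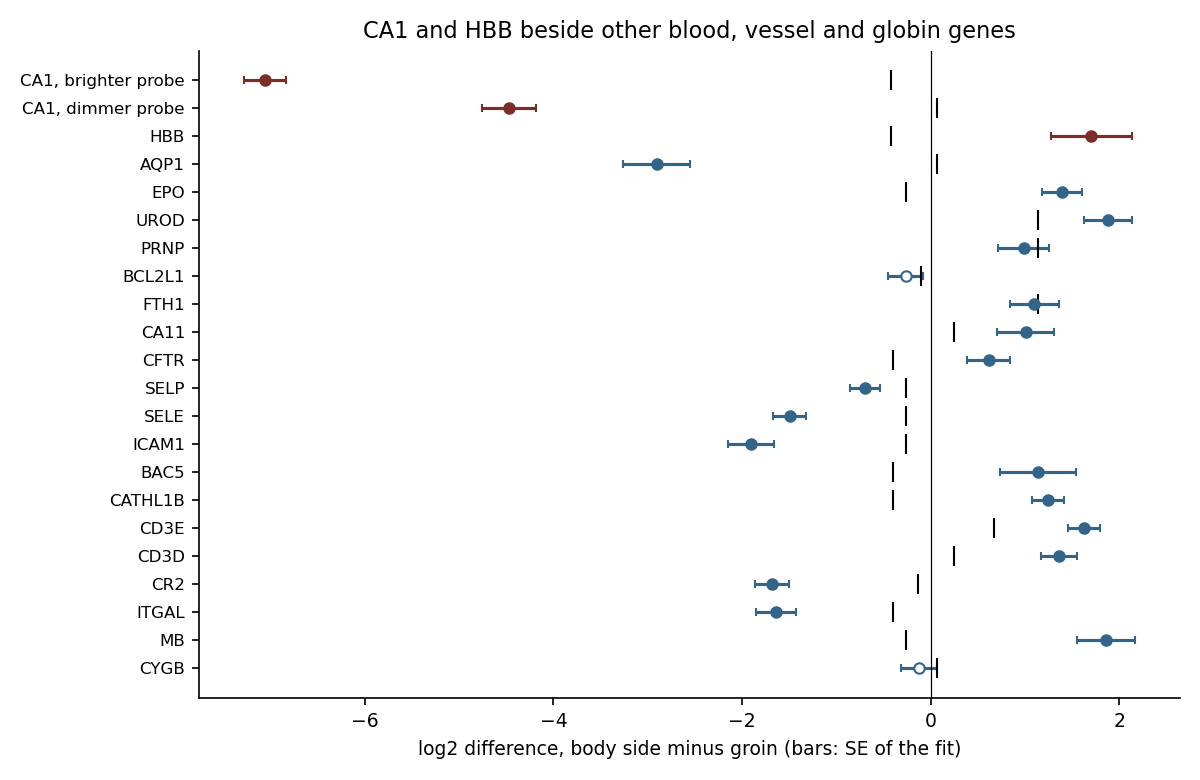
Log2 difference, body side minus groin, with the SE of the limma fit, for the CA1 and HBB probes (red) and for other genes (blue) of the blood, vessel and carbonic anhydrase lists, myoglobin (MB) and cytoglobin (CYGB); open blue points did not pass the threshold, the red ones carry no test, and black ticks are the median of probes of like brightness. CA1 lies farthest left at -7.06, AQP1 is the lowest of the other genes (measured values for it and ITGAL, which no body side array had well above background), and HBB at 1.70 lies among the genes that rose.

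Among carbonic anhydrases and acid-base transporters, only CA11 and the chloride channel CFTR had a named probe besides CA1. CA11, a relative that lacks enzyme activity, rose by 1.01 ± 0.30 (SE, limma adjusted p = 0.0161), from 0.01 ± 0.23 to 1.02 ± 0.61 (SD, n = 3 each). That call ended with cyclic loess (0.74, adjusted p = 0.0501) and without replicate 3 or groin replicate 2. CFTR rose by 0.62 ± 0.23 but was dim, above background by the software's call on 1 body side array, and its call ended with cyclic loess and in most leave-outs. After scaling, CA1 differed from both in direction. Without scaling, CA11 (-0.56) and CFTR (-0.96) also lay below 0, where the median of all tested probes was -1.47. The groin mean of CFTR, -6.53, lay under -6.06, the mean level of the lowest well above background signals on body side arrays.

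Named probes were at hand for 2 other globins. MB, the oxygen store of muscle, rose by 1.86 ± 0.31 (SE, limma adjusted p = 9.49e-04), from -4.49 ± 0.59 to -2.63 ± 0.35 (SD, n = 3 each), and its other probe did not pass (1.04). Of 6 tested skeletal and smooth muscle genes, MB among them, 4 rose, 1 fell and 1 did not pass, where 37% of all tested probes were called higher and 32.8% lower. CYGB, a globin of fibroblasts and other cells that was added after its place on the array was seen, did not pass at -0.12 ± 0.19 (adjusted p = 0.572), and its sign changed with the scaling. Of 4 genes of haem and iron handling, FTH1 among them, 2 rose and 2 did not pass, beside 37% of all tested probes called higher.

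The named genes whose levels over the 6 arrays were most like those of CA1 were also genes that were low on the body side. By Pearson's r with the brighter CA1 probe they included ACLY, which makes cytosolic acetyl-CoA (r = 0.996), MMP2, a gelatinase (0.995), VDAC1, a channel of the outer mitochondrial membrane (0.994), and PLIN2, a coat protein of lipid droplets (0.994). With 6 arrays in 2 groups that lie far apart, such an r mostly reads the site: 67 of 437 genes had an r above 0.95. By the size of the profile, measured as the root mean square difference after centring each probe on its mean, the nearest were SCD (0.99), CYP1A1 of foreign compound oxidation (1.25), RASSF1 (1.55), FHL1 (1.65) and MMP2 (1.69). This measure, too, mostly reads the site: in that order their measured site differences were -6.08, -4.82, -4.21, -3.88 and -3.71. No body side array had SCD well above background. With the lowest well above background signal of each body side array in its place, its scaled groin level was at least 24.9-fold higher. With normexp the difference of SCD was -2.52. RASSF1 was well above background on 1 body side array and MMP2 on 2. Of 8 tested genes of sebaceous gland and fat, which include SCD, ACLY and PLIN2, 4 fell, 3 rose and 1 did not pass. ACLY fell by 3.56 ± 0.17 (SE) and PLIN2, by its brightest probe, had a difference of -2.13 ± 0.19. Of 8 tested sweat and mammary gland genes 3 rose, 1 fell and 4 did not pass. As a background for both lists, 37% of all tested probes were called higher and 32.8% lower.

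For HBB close likeness was rarer, and 2 of the 437 genes had an r above 0.95. They were MYOD1, a muscle transcription factor that was dim, with 2 body side arrays well above background (r = 0.957), and CYB561, a membrane cytochrome (0.957). After them came DGAT1, which completes triglycerides (0.929), PRKAA2, a subunit of AMP-activated kinase (0.925), and PYGM, the glycogen phosphorylase of muscle (0.924). DGAT1 had a site difference of 0.46 by this probe and was called lower by its other probe (-0.83). By the root mean square difference the nearest included the tyrosinase TYR (0.45), the milk protein CSN3 (0.47), PAG6 (0.48) and the neuropeptide gene ADCYAP1 (0.50). Their site differences were also above 0, at 1.79, 1.38, 1.28 and 1.39, so this measure reads the site as well.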

How the data were processed

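Total RNA of 6 skin samples went through linear amplification and Cy3 labelling and onto 1 array each, per the labels' protocols. Spots were read with Agilent Feature Extraction 10.5.1.1, per the file headers. Each deposited intensity is a processed signal from which the software had removed background and spatial trends; arrays were not brought to a common scale. A series table of deposited log2 values served as an alternative, and its normalization is not given in the sources used here.

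Control spots were left out, as were 6 to 51 outlier spots per array; no spot of the pair was saturated. Spots of a probe were averaged on the log2 scale, and the 75th percentile of each array was subtracted. Testing needed a probe above background by the software's call on every array of at least 1 site, and 2 values or more per site (13278 probes). Fits used limma 3.58.1 in R 4.3.3 with eBayes, without a block, and Benjamini-Hochberg adjustment over all tested probes; they were tested on simulated data. Probes were named through RefSeq accessions (734 of 15008; the others had no match here). A gene with several tested probes is represented by the brightest.

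The pair, the gene lists and the tests were chosen with earlier results of these data known. Named were every gene of the red cell and carbonic anhydrase lists, up to 4 members of other lists by smallest adjusted p, and the 5 genes most like each of the pair by each measure; a few genes that this rule names are not reported here. Deviations of same-numbered arrays correlated at 0.16, 0.09 and -0.09 across probes, so the fit does not pair arrays by number.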

Additional observations from a re-analysis of the deposited data

How the results depend on the processing

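CA1 kept its lower level on the body side under every alternative run that held its probes. HBB kept its higher level in each alternative that scaled the arrays. The brighter CA1 probe was at -4.75 with normexp, -6.60 with median centring, -6.70 with cyclic loess, -8.63 without scaling and -6.47 with dim values raised to the floor of the array, an alternative chosen after seeing the data; the dimmer was at -1.69 with normexp, -6.05 without scaling and -3.53 with the floor. HBB was at 0.13 ± 0.46 (SE) without scaling, a difference smaller than its error. A filter on all 6 arrays removed both CA1 probes, and a slide or scan block could not be fitted. With a replicate block the differences were the same (-7.06, -4.48 and 1.70), the SE of HBB was 0.22 in place of 0.43, and 9211 probes were called in place of 9279; not every array correlated best with its own number, since groin 3 did so with body side 2. Counts of called probes in the leave-outs ran from 6564 (without replicate 3) to 9746, with 3315 to 5205 higher and 3249 to 4541 lower. Higher calls made up 53.0% of all calls, 68.6% with normexp and 68.5% with median centring, settings with a median difference of 0.46 and 0.56; without scaling (median -1.47) 190 were higher and 9412 lower. Of the 27 other blood and carbonic anhydrase genes, 14 rose and 6 fell; this became 3 falls with normexp, 9 rises with cyclic loess, and no rise (0) with 16 falls without scaling. In the leave-outs 6 to 14 of them rose, 6 without replicate 3 and 9 without groin replicate 2, and 4 to 8 fell.

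Signs turned without scaling for BAC5 (-0.44), CA11 (-0.56), CATHL1B (-0.33), CD3D (-0.21), CFTR (-0.96), EPO (-0.18), FTH1 (-0.48) and PRNP (-0.59), in a setting where the median of all tested probes was -1.47. FTH1 was at -0.15 with quantile normalization, -0.61 with cyclic loess and -0.15 with the deposited log2 values, and PRNP at -0.077, -0.072 and -0.073; averaging the probes of PRNP gave -0.012. BCL2L1 was at 0.33 with normexp, 0.078 with quantile normalization, 0.19 with median centring, 0.041 with cyclic loess and 0.077 with the deposited values, and CYGB at 0.64, 0.084, 0.33, 0.12 and 0.072; when a replicate number was left out, CYGB ran from -0.27 (without replicate 1) to 0.077 (without replicate 3). ITGAL was at 0.59 with normexp. The interaction with sex at the brighter CA1 probe turned with normexp (0.81) and quantile normalization (0.18). The causes were not tested. The signal over background limits CA1 on the body side, where 1 of 3 arrays measured it.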
